A study of Mus musculus with 30 samples.

Results

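Platelets are shed by megakaryocytes, and 7 genes that mark these cells were followed through fracture repair: Pf4, Ppbp, Itga2b, Gp1bb, Gp5, Gp9 and Gp6. They were chosen by name, but with earlier results of these data known, and they are 7 of the 43629 genes in the table of read counts. The tissue was callus, the repair tissue that fills a broken bone, from male C57BL/6J mice aged 20 weeks at surgery. All mice received an open osteotomy of the tibia that was stabilised with an intramedullary nail, and they stayed on a lean diet (Lean) or, as diet-induced obese mice (DIO), on a high-fat diet until harvest. Lean calluses were taken on days 3, 5, 7 and 10 (d3 to d10), and DIO calluses on the same days and then on d14 and d21. Each group had 3 mice with 1 callus per library, which gave 30 libraries. Calluses of Lean mice at the last 2 times are not analysed here. Soft tissue around the callus was removed and intact bone was avoided, but blood and marrow cells were not sorted away. In such whole-tissue RNA, fewer cells of a type and less RNA per cell cannot be told apart.

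Megakaryocytes are large marrow cells that release platelets into the blood. Platelets have no nucleus, but they carry RNA inherited from the megakaryocyte, so transcripts of these genes can come from either. Platelets fill the clot that forms at a fracture, and megakaryocytes reside in marrow. Pf4 and Ppbp encode chemokines stored in platelet alpha granules. Itga2b encodes the alpha IIb chain of the fibrinogen receptor, which joins the beta 3 chain encoded by Itgb3. Gp1bb, Gp5 and Gp9 encode chains of the receptor for von Willebrand factor, whose remaining chain comes from Gp1ba, and Gp6 encodes the collagen receptor of platelets. Pf4 is also transcribed by some mouse macrophages.

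On GRCm38, Pf4 lay at chr5:90772435-90773383 and Ppbp at chr5:90768518-90770063, on the same strand and 2371 bases apart. Itga2b lay at chr11:102453297-102470122, Gp1bb at chr16:18620317-18622403, Gp5 at chr16:30307685-30310779, Gp9 at chr6:87778072-87779768 and Gp6 at chr7:4363965-4397744. Only Gp1bb of the 7 shared exon bases with another gene. Sept5, on the same strand, covered 1902 of its 2087 exon bases (91.1%). How reads on those shared bases were counted is not given in the sources used here, so the Gp1bb values are uncertain.

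Because several of these genes moved together between libraries (below), their promoter windows were read from RefSeq (GRCm38.p6), which held a window for each of the 7. Each window covers 250 bases before and 50 bases after the annotated start. The windows of 4 members are shown, namely Itga2b and Gp5 (the pair with the highest Pearson r) and the neighbours Pf4 and Ppbp. With Spearman's rho the closest pair was Ppbp and Gp5 (0.964, against 0.952 for Itga2b and Gp5). Capitals mark matches, on either strand, to a GATA motif (AGATAA or TGATAA) or an ETS motif (AGGAAG), the motifs of factor families that are active in megakaryocytes.
Itga2b, chr11:102469834-102470133, minus strand: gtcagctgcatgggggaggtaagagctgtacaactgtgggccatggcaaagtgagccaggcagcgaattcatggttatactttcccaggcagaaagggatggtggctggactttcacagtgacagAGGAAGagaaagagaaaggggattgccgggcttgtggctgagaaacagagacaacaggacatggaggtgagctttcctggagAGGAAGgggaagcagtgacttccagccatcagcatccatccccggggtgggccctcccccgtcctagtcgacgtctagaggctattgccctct
Gp5, chr16:30310732-30311031, minus strand: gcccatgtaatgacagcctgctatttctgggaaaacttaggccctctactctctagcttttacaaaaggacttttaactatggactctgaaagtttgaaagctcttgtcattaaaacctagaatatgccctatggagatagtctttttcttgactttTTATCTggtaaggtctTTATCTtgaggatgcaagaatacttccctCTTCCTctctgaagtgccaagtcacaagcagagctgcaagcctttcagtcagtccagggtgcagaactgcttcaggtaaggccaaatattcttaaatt
Pf4, chr5:90772185-90772484, plus strand: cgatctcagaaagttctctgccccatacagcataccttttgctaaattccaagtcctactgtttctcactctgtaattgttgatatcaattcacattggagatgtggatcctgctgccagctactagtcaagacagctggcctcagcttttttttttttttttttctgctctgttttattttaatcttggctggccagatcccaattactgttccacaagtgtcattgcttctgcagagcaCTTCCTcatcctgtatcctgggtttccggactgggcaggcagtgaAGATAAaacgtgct
Ppbp, chr5:90768268-90768567, plus strand: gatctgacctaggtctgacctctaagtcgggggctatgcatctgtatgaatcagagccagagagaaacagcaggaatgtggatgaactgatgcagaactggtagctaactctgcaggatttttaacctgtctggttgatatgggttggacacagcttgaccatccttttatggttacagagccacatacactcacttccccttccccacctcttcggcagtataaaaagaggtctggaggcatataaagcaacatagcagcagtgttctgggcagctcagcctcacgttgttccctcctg

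The Gp5 window held GATA matches starting at -93 and -77 from the annotated start and an ETS match at -48. The Pf4 window held an ETS match at -9 and a GATA match at 36, after the start, and the Itga2b window held ETS matches at -125 and -43. The Ppbp window held neither motif in these letters. Over the members, 3 of 7 windows held a GATA motif, beside 18.6% of the 32851 windows of all genes, and 5 of 7 held an ETS motif, beside 35.4%. These matches are a description of letters in a window and say nothing about binding.

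Total counts per library ran from 13247122 to 26365620. Values are given as counts per 1000000 (CPM), scaled with the TMM factors of edgeR, and as CPM per kb of exon where genes are compared. Of 8 genes that mark cartilage and bone, none was at 0 in every library of a group, and their summed CPM was between 13285 and 129999 in the 30 libraries. The highest sum came from the library labelled Lean d10 replicate 1, and the other Lean d10 libraries had 54024 and 65902. No pair of libraries of the same group agreed within sampling noise.

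All 7 members were detected in the callus, and their levels spanned a wide range. Per kb of exon, the median over the 30 libraries was 108 CPM for Pf4, 73.0 for Ppbp, 17.1 for Gp9, 10.0 for Gp1bb, 9.86 for Itga2b, 5.85 for Gp5 and 0.312 for Gp6. Gp6 had at least 3 counts in 28 of the 30 libraries, and the other members in every library. Between mice of the same group, the members varied more than most genes. The SD of log2 CPM within groups was 1.5 for Ppbp, 1.19 for Gp9, 1.15 for Gp6, 1.06 for Gp5, 0.79 for Itga2b, 0.58 for Gp1bb and 0.40 for Pf4, beside a median of 0.27 over 14808 genes. Ppbp varied more than 99.8% of those genes, and Pf4 more than 74.1%.

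**Figure D1:**
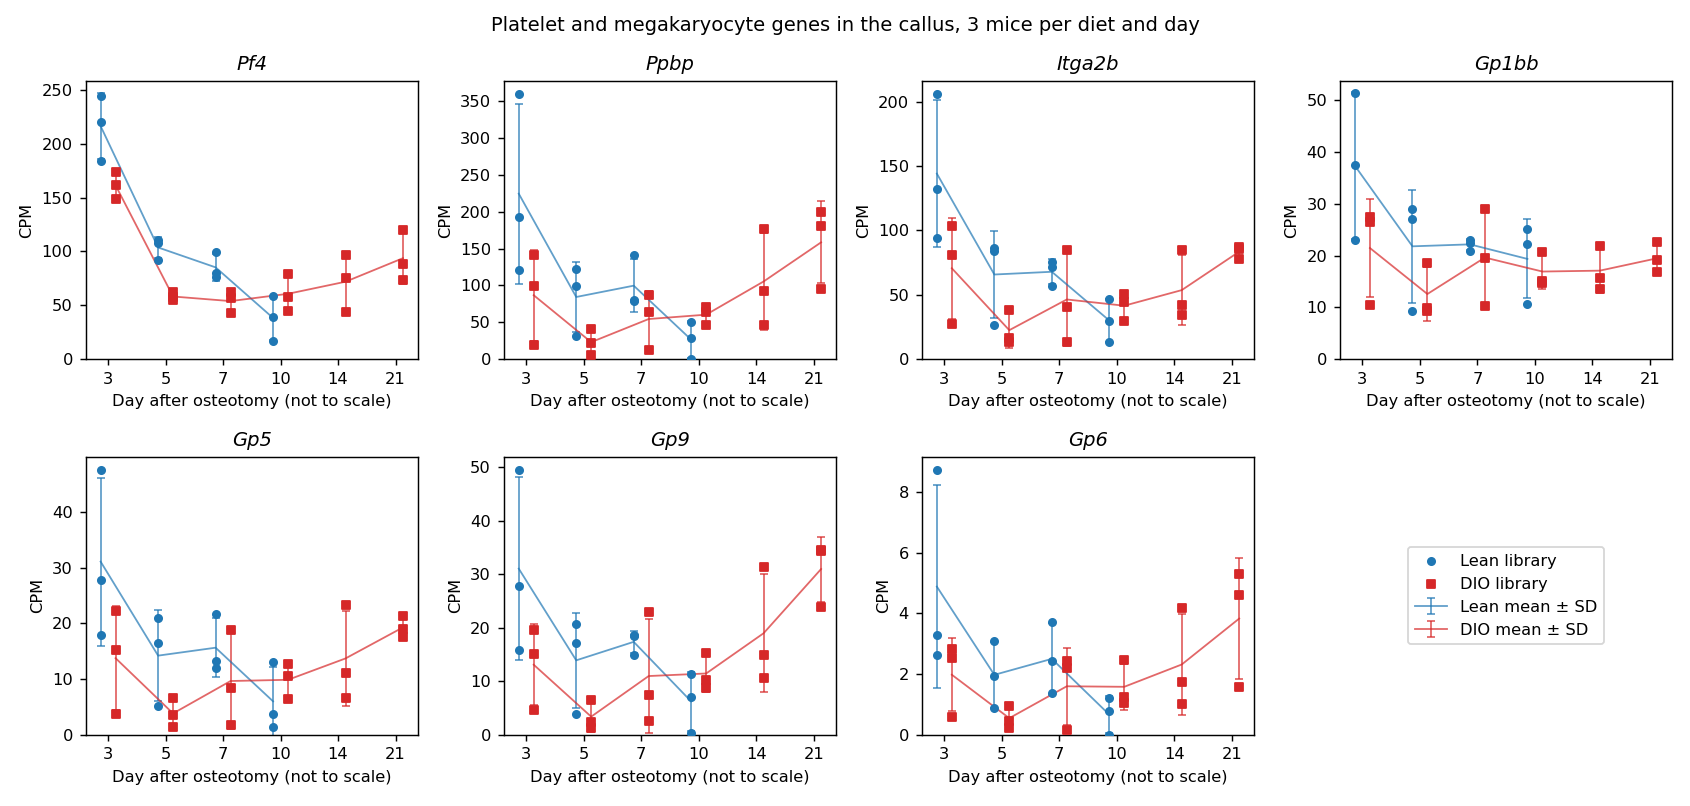
CPM (y axis, linear, from 0) of each member by day after osteotomy (x axis, days evenly spaced and not to scale) in Lean (blue circles) and DIO libraries (red squares), with lines through the group means and bars of 1 SD over 3 mice, cut off at 0. Means were highest in Lean mice on d3 for 7 of 7 members, and within the DIO groups the means of 6 members, all but Pf4, were lowest on d5.

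Pf4 was highest on d3 in both diets. The 3 Lean libraries of d3 had 184, 220 and 245 CPM, those of d5 had 111, 108 and 92.3, those of d7 had 79.9, 99.2 and 76.3, and those of d10 had 17.2, 58.5 and 38.7. Every Lean d3 library was above every later Lean library, and every Lean d10 library was below those of d7. In DIO mice, Pf4 was at 174, 161 and 149 CPM on d3, at 57.6, 54.7 and 61.98 on d5, at 56.7, 42.6 and 62.3 on d7 and at 58.0, 78.8 and 45.0 on d10. It was at 74.8, 96.5 and 44.1 CPM on d14 and at 120, 73.1 and 88.4 on d21. The 3 DIO d3 libraries lay above all later DIO libraries. In the order of the 10 group means, Lean d3 (216 ± 30.4 CPM, SD, n = 3) was followed by DIO d3 (161 ± 12.4), and neither overlapped the next group, while the 7 further neighbouring pairs overlapped, down to Lean d10 (38.2 ± 20.7).

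Itga2b had a larger spread between mice. Lean d3 libraries had 94.3, 206 and 132 CPM, those of d5 had 26.9, 84.1 and 86.2, those of d7 had 56.7, 71.5 and 75.3, and those of d10 had 13.5, 46.9 and 29.5. Only Lean d3 stood clear of the group next in order, and each Lean d10 library was below each Lean d7 library. The DIO libraries had 27.3, 104 and 80.7 CPM on d3, 38.2, 16.2 and 13.02 on d5, and 40.8, 13.6 and 84.6 on d7. They had 50.9, 44.3 and 29.2 CPM on d10, 41.6, 84.5 and 34.6 on d14, and 87.0, 77.7 and 85.8 on d21. On d21 the 3 DIO mice lay close together, and on d3, d7 and d14 they did not.

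Ppbp ranged from 0.438 to 359 CPM over the 30 libraries. The Lean d10 libraries had 0.438, 49.7 and 28.9 CPM, of which the first rests on 7 counts. The Lean d3 libraries had 121, 359 and 193 CPM and the Lean d7 libraries 79.9, 78.2 and 141, so all 3 Lean d10 mice were below all mice of d3 and d7. In DIO mice, Ppbp was at 19.6, 141 and 99.7 CPM on d3, at 41.1, 21.7 and 6.14 on d5, and at 181, 95.1 and 199 on d21. The d5 and d21 libraries did not overlap, and the d3 libraries reached into both ranges.

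The receptor chains had lower levels. Gp5 was at 17.9, 47.6 and 27.8 CPM in the Lean d3 libraries and at 1.38, 12.999 and 3.65 in those of d10. Gp6 was at 2.63, 8.72 and 3.29 CPM on d3 and at 0, 1.21 and 0.777 on d10, where its 0 came from the library labelled replicate 1 and allows a level of up to 0.188 CPM. For both genes every Lean d10 mouse was below every Lean d3 mouse. Gp9 averaged 31.1 ± 17.1 CPM in Lean d3, 6.23 ± 5.51 in Lean d10, 3.39 ± 2.77 in DIO d5 and 30.99 ± 6.07 in DIO d21 (SD, n = 3). Gp5 averaged 31.1 ± 15.1, 6.01 ± 6.16, 3.84 ± 2.55 and 19.3 ± 1.86 CPM in the same groups. Gp6 averaged 4.88 ± 3.34, 0.663 ± 0.614, 0.548 ± 0.363 and 3.83 ± 1.99 CPM. All 3 genes had higher means in Lean d3 and DIO d21 than in Lean d10 and DIO d5. Gp1bb ranged from 9.21 to 51.4 CPM over the 30 libraries, a highest-to-lowest ratio of 5.58. In the order of group means, all 9 neighbouring pairs overlapped for Ppbp, Gp1bb, Gp5, Gp9 and Gp6.

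The comparison of Lean days addressed how these genes changed during early repair. In Lean d10 against d3, 5 of 7 members fell, beside 14.1% of all genes tested that were called lower. Pf4 fell 5.58-fold, from 216 ± 30.4 to 38.2 ± 20.7 CPM (log2 fold change -2.48, SE 0.33, adjusted p = 0.000584, edgeR). Ppbp fell 8.37-fold (log2 -3.07, SE 0.96, adjusted p = 0.0322), Gp6 fell 7.26-fold (adjusted p = 0.0239), Gp5 fell 5.11-fold (adjusted p = 0.0261) and Itga2b fell 4.73-fold (adjusted p = 0.0059). Gp9 had a log2 fold change of -2.30 (SE 0.81, adjusted p = 0.0512) and Gp1bb of -0.92 (SE 0.41, adjusted p = 0.112), and neither passed the threshold. The groups did not overlap for 6 members (all but Gp1bb), beside 21.6% of genes tested with every d10 library lower. The median over the 7 members was -2.35, and over all genes tested it was 0.02.

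These calls rested in part on single mice. The library labelled Lean d3 replicate 2 had the highest level of 6 members, and without it 2 members were called. Without Lean d10 replicate 3 the count was 3, and without Lean d10 replicate 1, the lowest library for Pf4, Ppbp, Gp5, Gp9 and Gp6, it was 4. Pf4 and Itga2b were called with any 1 of the 6 libraries left out. Over all genes, the calls in these refits ran from 2863 to 5016. Without Lean d10 replicate 2, the highest of its group for 7 of 7 members, the log2 fold changes were -2.95 for Pf4, -3.94 for Ppbp, -3.63 for Gp5 and -3.62 for Gp6, and 6 members were called. Without Lean d10 replicate 1 they were -2.13 for Pf4, -2.48 for Ppbp and -1.87 for Gp5, and without Lean d3 replicate 2 the value for Gp6 was -2.15.

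**Figure D2:**
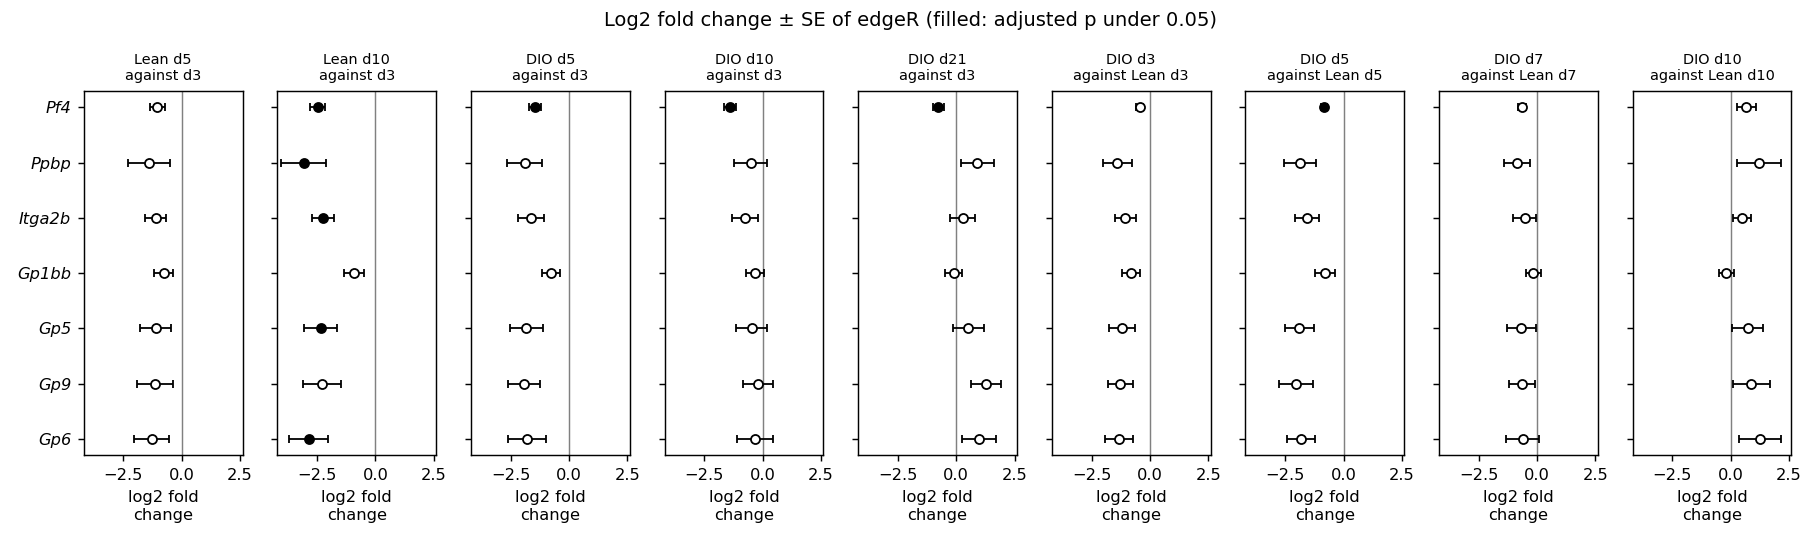
Log2 fold change (x axis, bars of 1 SE) of each member (y axis) in 9 comparisons, from edgeR fits over all genes, with filled points where the adjusted p was under 0.05. In Lean d10 against d3, 5 members were called lower. Pf4 was called lower in each of the DIO d5, d10 and d21 comparisons with d3. Of the 4 comparisons between diets only d5 had a call, Pf4, which was lost with all 30 libraries in 1 fit. It was also lost with the replicate block, in which libraries of different diets share only a number.

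In the single steps between Lean d3 and d10, edgeR gave no calls of members. In Lean d5 against d3, edgeR called 0 of 7 members (0.449% of all genes were called) and DESeq2 called 1. An unadjusted p under 0.05 was found for 2 members, beside 2430 of 16471 genes. Pf4 had a log2 fold change of -1.05 (SE 0.32, adjusted p = 0.152) and Itga2b of -1.13 (SE 0.47, adjusted p = 0.286), and for both every d5 library was below every d3 library, a pattern found in 10.3% of genes. In Lean d7 against d5, 0 members were called by either tool, 0 had an unadjusted p under 0.05 (926 genes did), and 0% of all genes were called. In Lean d10 against d7, edgeR called 0 members (2.73% of all genes) and DESeq2 called 1. There 3 members had an unadjusted p under 0.05, beside 4275 of 16471 genes. The groups did not overlap for 5 members, beside 14.7% of genes with every d10 library lower. Log2 fold changes there were -1.15 for Pf4 (SE 0.32, adjusted p = 0.0673), -1.17 for Itga2b (SE 0.47, adjusted p = 0.145) and -1.91 for Ppbp (SE 0.93, adjusted p = 0.214). Over the 4 Lean days tested at once, Pf4 (adjusted p = 0.00338) and Itga2b (adjusted p = 0.0307) differed, 2 of 7 members beside 19% of all genes. The count was 1 without Lean d3 replicate 2, Lean d3 replicate 3, Lean d7 replicate 2 or Lean d10 replicate 3. Leaving out each library in turn called 1678 to 3130 genes.

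Other genes of the platelet lineage were read from lists. Of 12 further genes for platelet receptors and surface proteins, 6 fell and 1 rose in Lean d10 against d3, with a median log2 fold change of -1.69 (14.1% of all genes were called lower and 15.2% higher). F2rl2, a thrombin receptor, fell by 2.81 on the log2 scale (adjusted p = 0.0142), and P2ry12, the ADP receptor that is also found on some macrophages, fell by 2.15 (adjusted p = 0.00279). The gene that rose was Itgb3, the partner chain of Itga2b, which osteoclasts also use (log2 fold change 1.11, SE 0.27, adjusted p = 0.00955). Itgb3 averaged 197 ± 69.0 CPM in Lean d3 and 420 ± 28.7 CPM in Lean d10, so Itgb3 rose where Itga2b fell. Of 12 genes for granules, cytoskeleton and enzymes, 7 fell and 1 rose, with a median of -1.29. Nbeal2, needed for alpha granules, fell by 2.35 (adjusted p = 0.00131), and so did Vwf (by 1.89, adjusted p = 0.00355) and Selp (by 1.79, adjusted p = 0.00011), which endothelial cells make too. The gene that rose, named after its value was seen, was F13a1, a coagulation factor chain that macrophages also make (0.97, adjusted p = 0.0428).

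Of 10 transcription factors of megakaryocytes, 2 fell, Fli1 by 0.77 (adjusted p = 0.0211) and Tal1 by 1.62 (adjusted p = 0.0475), and the list's median was -0.74. Nfe2, which drives platelet release, was at 92.4 ± 50.5 CPM in Lean d3 and 24.8 ± 24.9 in Lean d10 (adjusted p = 0.0816). Genes of other cell types were read beside them. Of 5 genes of granulocyte precursors in marrow, 3 fell and their summed level was 671 to 1593 CPM in Lean d3 and 22.6 to 395 CPM in Lean d10, and of 9 mature neutrophil genes 6 fell. Of 11 erythroid genes 0 were called, with a median of -1.22, and 7 of 12 monocyte and macrophage genes fell and 2 rose. All 8 cartilage and bone genes rose, as did 2 of 7 endothelial genes, while 2 of 6 mast cell genes fell and 0 of 6 B lineage genes were called. The part of these cells in the fall of the members was not tested.

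In DIO mice, the comparison of days ran to d21. Between d3 and d5, Pf4 fell 2.78-fold, from 161 ± 12.4 to 58.1 ± 3.65 CPM (log2 fold change -1.47, SE 0.26, adjusted p = 0.00572), and it was the 1 member called, beside 0.282% of all genes called lower. No DIO d5 library reached a d3 library for Pf4, a pattern found in 12.8% of genes. Of the 7 members, 6 had an unadjusted p under 0.05, beside 2333 of 16995 genes. The 6 members other than Pf4 had log2 fold changes between -0.77 (Gp1bb) and -1.93 (Gp9), with adjusted p from 0.17 to 0.382, and their ranges overlapped. The values were -1.91 for Ppbp (SE 0.73), -1.65 for Itga2b (SE 0.56), -1.83 for Gp5 (SE 0.71) and -1.81 for Gp6 (SE 0.80). The lowest d3 library for these 6 was DIO d3 replicate 1 and the highest d5 library was DIO d5 replicate 1. DIO d3 replicate 1 had 27.3 CPM of Itga2b and 19.6 CPM of Ppbp against 174 CPM of Pf4, the highest Pf4 value of its group.

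From d5 onwards, 6 of 7 members had higher means at d7 than at d5. Yet edgeR and DESeq2 each called 0 members (0.0177% of all genes by edgeR). An unadjusted p under 0.05 was found for 1 member, beside 2411 of 16995 genes. That member was Gp9, with a log2 fold change of 1.70 (SE 0.68, adjusted p = 0.272). In d10 against d7, d14 against d10 and d21 against d14, edgeR and DESeq2 called 0 members. There edgeR called 13%, 0.759% and 19.6% of all genes. In these steps 0 members had an unadjusted p under 0.05, beside 4537, 3006 and 5861 of 16995 genes. The means of all 7 members were higher on d14 than on d10 and higher on d21 than on d14, with medians of 0.48 and 0.60 on the log2 scale.

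Against d3, Pf4 was still lower on d10 (log2 fold change -1.41, SE 0.26, adjusted p = 0.00103), the 1 member called beside 10.8% of genes called lower, and every d10 library was below every d3 library, as for 21.4% of genes. It was lower on d21 too (-0.76, SE 0.25, adjusted p = 0.0199, beside 21.8% of genes called lower, without overlap, as for 27.3% of genes), but that call was lost without DIO d3 replicate 1, DIO d21 replicate 2 or DIO d21 replicate 3. For Gp9 every d21 library, at 34.5, 23.97 and 34.4 CPM, was above every d3 library, at 4.68, 19.5 and 15.1 CPM, a pattern found in 27.7% of genes tested. Its log2 fold change was 1.26 (SE 0.64, adjusted p = 0.119), and that of Ppbp was 0.90 (SE 0.71, adjusted p = 0.32). Pf4 was thus on the lower side of d3 and 5 members had higher means than on d3. Over the 6 DIO days tested at once, Pf4 (adjusted p = 0.000173), Gp9 (adjusted p = 0.015) and Ppbp (adjusted p = 0.048) differed, 3 of 7 beside 59.1% of all genes. That count was 1 without DIO d5 replicate 2 and 5 without DIO d7 replicate 2 or DIO d7 replicate 3. Leaving out each library in turn called 8899 to 10539 genes.

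On d21 most of the listed transcription factors were above their d3 levels. In DIO d21 against d3, 7 of 10 transcription factors rose and 1 fell, with a median of 1.72, beside 23.5% of all genes called higher. Gata1 rose from 4.76 ± 2.63 to 94.7 ± 7.63 CPM (log2 fold change 4.32, adjusted p = 0.000282), Tal1 rose by 3.04 (adjusted p = 0.000117) and Zfpm1 by 2.41 (adjusted p = 0.00079). These factors serve erythroid cells as well, and all 11 erythroid genes rose, with a median of 5.53 and a summed level of 27818 to 39262 CPM on d21 against 801 to 887 on d3. Fli1 rose by 1.02 (adjusted p = 0.000351), and Runx1, named after its value was seen, fell by 0.50 (adjusted p = 0.0155). Of the receptor genes 2 of 12 rose, Itgb3 (1.72, adjusted p = 0.000287) and the ADP receptor P2ry1 (1.38, adjusted p = 0.000934). Of the granule and enzyme genes 4 of 12 rose, among them Rasgrp2 (1.67, adjusted p = 0.00112) and Ptgs1 (1.18, adjusted p = 0.000494), the cyclooxygenase of platelets, which other cells use too. All 5 granulocyte precursor genes, 8 of 9 mature neutrophil genes, 6 of 6 B lineage genes and 4 of 6 mast cell genes rose, while 5 of 12 monocyte and macrophage genes and 4 of 7 endothelial genes fell. Of the cartilage and bone genes 2 rose and 4 fell. The part of these cells in the members' levels was not tested.

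The comparison of diets within a day addressed how these genes differed between DIO and Lean mice. In this design obesity and the high-fat diet cannot be told apart. On d5, Pf4 was lower in DIO calluses, at 58.1 ± 3.65 against 103.6 ± 9.93 CPM (log2 fold change -0.84, SE 0.11, adjusted p = 0.0343), the 1 member called beside 0.948% of genes called lower. Every DIO library, at 54.7 to 61.98 CPM, was below every Lean library, at 92.3 to 111 CPM, a pattern found in 12.4% of genes. The call was lost without Lean d5 replicate 2 or any 1 of the 3 DIO d5 libraries, with log2 fold changes from -0.92 to -0.79 whichever library was left out. It was also lost with all 30 libraries in 1 edgeR fit (adjusted p = 0.195), while DESeq2 called 2 members. With the replicate block in edgeR it was lost too (adjusted p = 0.215), but libraries of different diets share only a number. That block therefore cannot decide about the call. Leaving out each library in turn called 0 to 935 genes. The other 6 members were lower in the mean, and their ranges overlapped. Log2 fold changes were -1.88 for Ppbp (SE 0.68, adjusted p = 0.2), -1.55 for Itga2b (SE 0.52, adjusted p = 0.17), -1.89 for Gp5 (SE 0.62, adjusted p = 0.163), -2.03 for Gp9 (SE 0.72, adjusted p = 0.194), -1.81 for Gp6 (SE 0.61, adjusted p = 0.171) and -0.80 for Gp1bb (SE 0.44, adjusted p = 0.389). Itga2b was at 26.9 CPM in Lean d5 replicate 1, against 84.1 and 86.2 in the other Lean mice, and at 38.2 CPM in DIO d5 replicate 1, against 16.2 and 13.02 in the other DIO mice. The median of the 7 was -1.81, and over all genes tested it was 0.01. Of the 7, 6 had an unadjusted p under 0.05, beside 2913 of 15722 genes.

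The wider lists on d5 gave few calls, and over all genes 2913 of 15722 had an unadjusted p under 0.05. Of the receptor genes, 12 of 12 had lower means in DIO and edgeR called 0, with 7 at an unadjusted p under 0.05. Of the granule and enzyme genes 1 of 12 was lower, Tbxas1, the thromboxane synthase that macrophages also make (log2 fold change -1.12, SE 0.14, adjusted p = 0.0297). Of the transcription factors edgeR called 0 of 10, with 8 at an unadjusted p under 0.05. Sums of genes of other cells stood as follows on that day. The summed level of 12 monocyte and macrophage genes was 2739 to 3166 CPM in DIO and 4435 to 5919 in Lean d5. Of 11 tested, 1 was called lower and 7 had an unadjusted p under 0.05. The summed level of the granulocyte precursor genes was 93.5 to 219 CPM in DIO and 125 to 906 in Lean, and 0 of 5 were called (5 at an unadjusted p under 0.05). Mature neutrophil genes summed to 896 to 3967 CPM in DIO and 2159 to 11709 in Lean, with 0 of 9 called and 7 at an unadjusted p under 0.05. Erythroid genes summed to 407 to 678 CPM in DIO and 464 to 3073 in Lean, with 0 of 11 called and 11 at an unadjusted p under 0.05. No gene of these lists was at 0 in every library of a group, and the part of these cells in the Pf4 difference was not tested.

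On d3 edgeR and DESeq2 called 0 members between diets, and edgeR called 0% of all genes. An unadjusted p under 0.05 was found for 3 members, beside 2374 of 15772 genes. All 7 had lower means in DIO, with a median of -1.19. Pf4 had a log2 fold change of -0.44 (SE 0.14, adjusted p = 0.209), with every DIO library below every Lean library, a pattern found in 10.6% of genes. Ppbp had one of -1.39 (SE 0.63, adjusted p = 0.347) and Gp9 of -1.26 (SE 0.53, adjusted p = 0.313). On d3, summed mature neutrophil genes were at 2191 to 3694 CPM in DIO and 11812 to 25467 in Lean, and erythroid genes at 801 to 887 and 1019 to 6299. On d7 both tools called 0 members, beside 2.32% of all genes by edgeR. There 1 member, Pf4, had an unadjusted p under 0.05, beside 2614 of 15753 genes. Pf4 had a log2 fold change of -0.65 (SE 0.19, adjusted p = 0.122) and no overlap, found in 12% of genes. Without DIO d7 replicate 3, 1 member was called, Gp9 (log2 fold change -1.76, edgeR adjusted p = 0.0416), and Pf4 had an adjusted p of 0.0577. Leaving out each library in turn called 29 to 936 genes.

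On d10 the means ran the other way, with 6 of 7 members higher in DIO and a median of 0.73. Both tools called 0 members and 0 had an unadjusted p under 0.05 (1082 of 15341 genes did), and edgeR called 0% of all genes. Pf4 had a log2 fold change of 0.67 (SE 0.39, adjusted p = 0.698) and Ppbp of 1.20 (SE 0.94, adjusted p = 0.756), and the ranges overlapped for all 7. The change of the diet difference from d7 to d10, tested over 24 libraries, was 1.33 for Pf4 (SE 0.39, adjusted p = 0.0502) and 2.07 for Ppbp (SE 1.26, adjusted p = 0.336). edgeR called 0 members there, beside 5.07% of all genes, and DESeq2 called 1. An unadjusted p under 0.05 was found for 1 member, beside 3952 of 17057 genes. Without Lean d10 replicate 2, DIO d7 replicate 3 or DIO d10 replicate 3, 1 member was called, Pf4, and leaving out each library in turn called 257 to 1660 genes. Over all 4 shared days edgeR called 0 members, beside 1.65% of all genes, and DESeq2 called 1. There 1 member had an unadjusted p under 0.05, beside 3137 of 17057 genes. Without Lean d10 replicate 2 edgeR called 1 member, and leaving out each library in turn called 0 to 602 genes.

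Across the 30 libraries, most members kept to 1 pattern and Pf4 and Gp1bb stood further off. Pearson r of log2 CPM was 0.974 between Itga2b and Gp5, whose promoters are shown above, and 0.962 between Ppbp and Gp9. Pf4 reached 0.711 with Itga2b and 0.444 with Gp1bb, and its neighbour Ppbp 0.697. These points share diet, day and library, so the coefficients are descriptions. After the group means were taken out, r was 0.97 for Itga2b and Gp5, 0.957 for Ppbp and Gp9 and 0.483 for Pf4 and Itga2b.

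**Figure D3:**
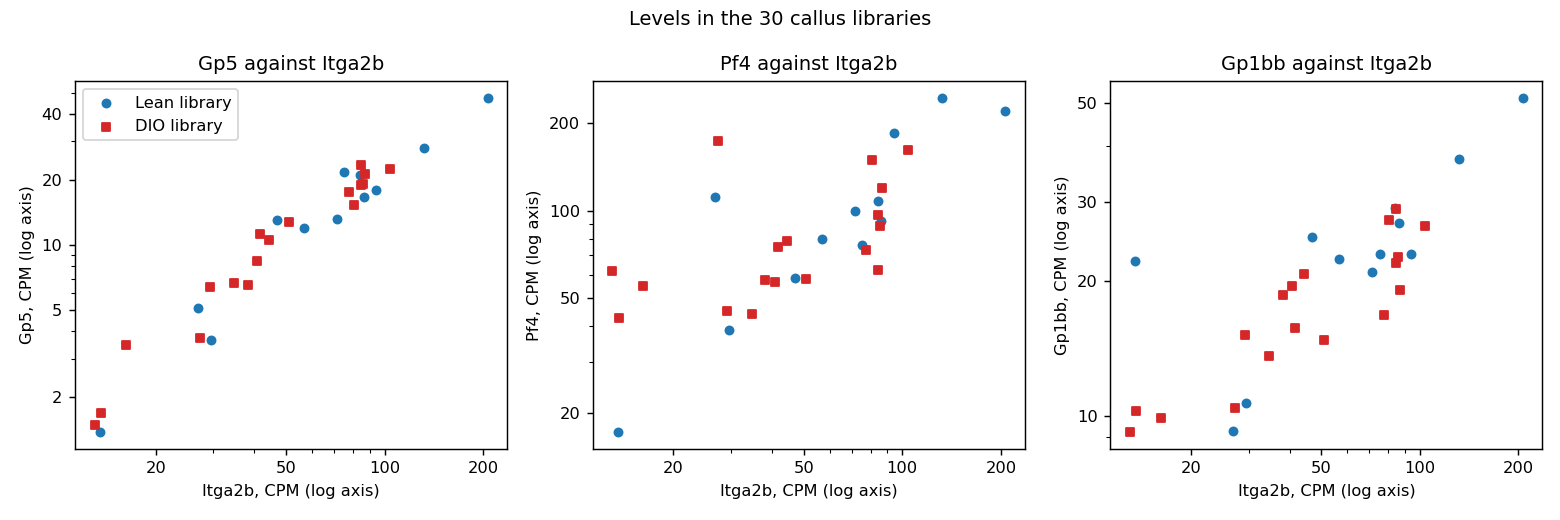
CPM of Gp5, Pf4 and Gp1bb (y axes, log scale) against CPM of Itga2b (x axes, log scale) in 30 libraries, Lean as blue circles and DIO as red squares. Gp5 kept close to Itga2b (r = 0.974), whereas Pf4 stayed at 174 CPM in a DIO d3 library with 27.3 CPM of Itga2b, and Gp1bb at 22.2 CPM in a Lean d10 library with 13.5 CPM.

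The genes with the most similar patterns, among 14808 with a mean of at least 1 CPM, were for 6 of the members largely other members or genes of the platelet lists. Itga2b was close to Gp5 (r = 0.974) and F2rl2. Ppbp was closest to Gp1ba (0.979), Treml1 and Tubb1, and Gp9 to Clec1b (0.978), P2rx1 and Ppbp. Gp5 was closest to Itga2b and also close to F2rl2, Gp6 was closest to Clec1b (0.957), F2rl2 and Slamf1, and Gp1bb to Alox12 (0.915), Nrgn and Itga2b. Pf4 was closest to Dok2 (0.913), Ptgir and Daglb. Like P2rx1, Nrgn and Slamf1, they were in none of the platelet lists, and being outside a list does not make a gene foreign to platelets. The chosen genes depend on the measure, and with Spearman's rho 0 of the 3 for Gp5 and 2 of the 3 for Pf4 were shared.

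Pf4 also stood apart from the rest in its relation to the list of cartilage and bone genes. Its r with that list's mean log2 CPM was -0.779, and those of the other 6 ran from -0.538 (Ppbp) to -0.174 (Gp1bb). After the group means were taken out, r was -0.575 for Pf4 and -0.104 (Ppbp) to 0.346 (Gp1bb) for the other 6. Pf4 stood apart in its relation to the monocyte and macrophage list as well. Its r with that list's mean log2 CPM was 0.772, and those of the other 6 ran from 0.117 (Gp1bb) to 0.308 (Itga2b). After the group means were taken out, r was 0.465 for Pf4 and below 0 for the other 6, down to -0.444 for Gp1bb. In the same measure Pf4 was higher with the mature neutrophil (0.662), granulocyte precursor (0.609), B lineage (0.608) and erythroid lists (0.606). With the mature neutrophil list the other 6 had 0.578 (Gp1bb) to 0.936 (Gp9). Before the group means were taken out, r with the granulocyte precursor list was 0.584 for Pf4, 0.52 for Gp1bb and 0.834 to 0.934 for the other 5. The ratio of Pf4 to Itga2b CPM within a library was 6.37, 1.56 and 1.84 in the DIO d3 libraries, so that 1 library set it apart there. It was 3.22 ± 1.63 in DIO d5 and 2.16 ± 1.71 in Lean d5, with overlapping ranges of 1.51 to 4.76 and 1.07 to 4.13. In Lean d3 it was 1.63 ± 0.487 and in DIO d21 1.12 ± 0.229 (SD, n = 3). These differences between members were not tested, nor was the part of macrophages or of cartilage and bone in them.

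**Figure D4:**
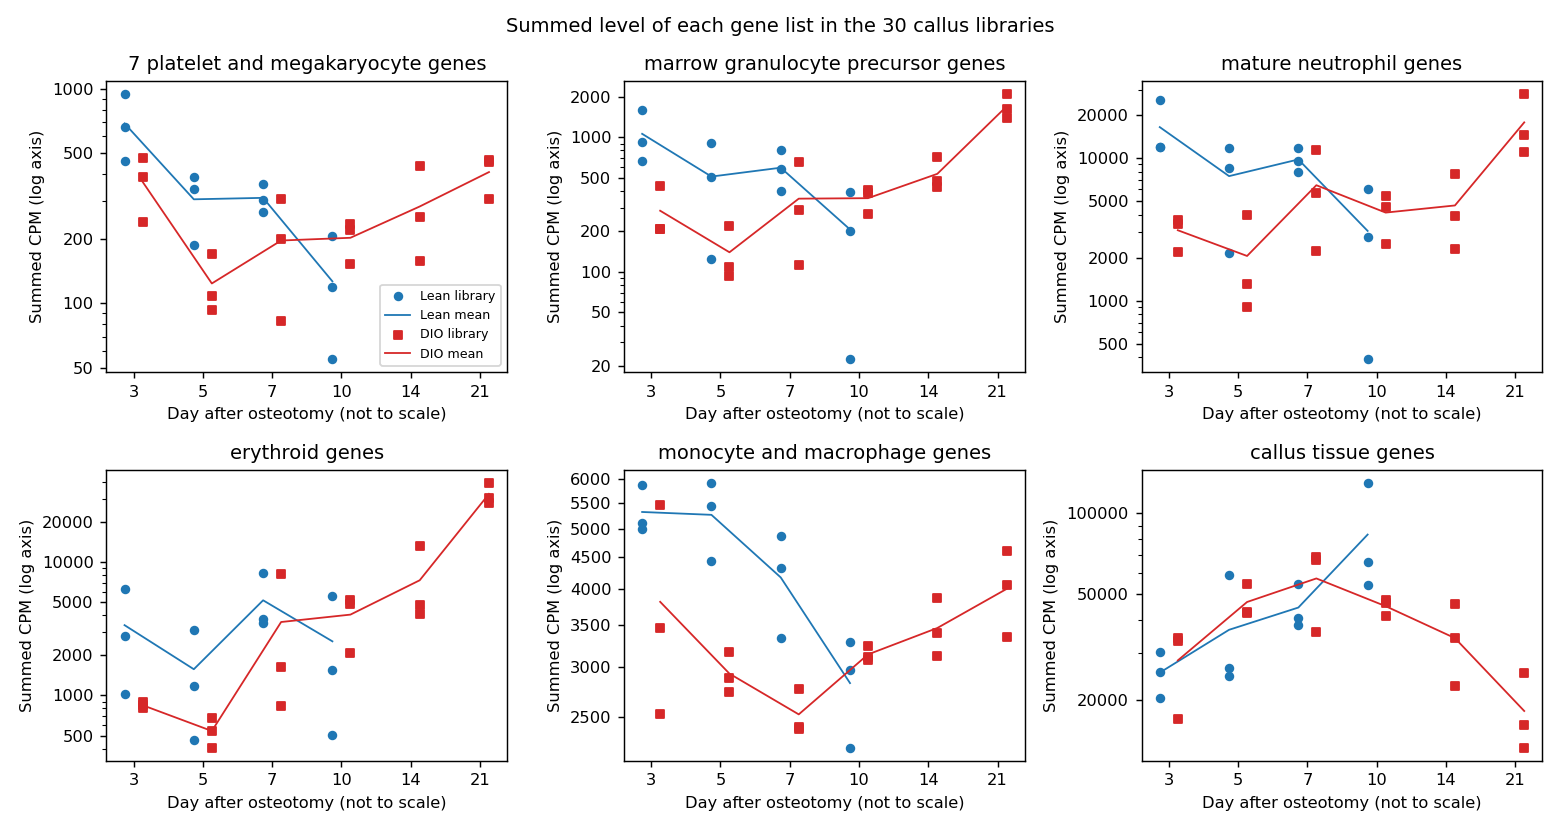
Summed CPM (y axis, log scale) of the 7 members and of 5 lists of marker genes by day after osteotomy (x axis, not to scale), with Lean libraries as blue circles, DIO libraries as red squares and lines through the group means. The members' sum was 55.2 to 943 CPM, lowest in the Lean d10 library with the highest cartilage and bone sum, and between DIO d3 and d21 the erythroid sum rose from 846 to 32519 CPM in the mean while the members' sum went from 369 to 409.

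The genes beside Pf4 and Ppbp on chromosome 5 encode chemokines that attract neutrophils and were read for comparison. Cxcl5, the nearest gene before Ppbp, fell from 24.6 ± 7.44 to 0.454 ± 0.369 CPM between Lean d3 and d10 (adjusted p = 3.2e-05), and Cxcl3, the nearest after Pf4, from 4.61 ± 1.52 to 0.288 ± 0.278 CPM (adjusted p = 0.00521). In DIO d21 Cxcl5 was at 0.798 ± 0.402 CPM, far below its 47.6 ± 15.1 CPM on d3 (adjusted p = 8.47e-05), while Ppbp was at 158 ± 55.6 CPM against 86.7 ± 61.7 on d3. Late in the DIO series, then, Ppbp was high in the group means where its neighbour Cxcl5 was low.

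The Gp1bb values have a limit of their own. Sept5, which shares most of its exons, averaged 80.9 ± 9.45 CPM in Lean d3 and 101 ± 44.5 in Lean d10, and Gp1bb averaged 37.3 ± 14.2 and 19.4 ± 7.63 CPM. Between DIO d7 and d10 Sept5 fell by 1.07 on the log2 scale (SE 0.23, adjusted p = 0.00471), and Gp1bb had an adjusted p of 0.757. The ratio of Gp1bb to Itga2b was 0.259 ± 0.022 in Lean d3 and 0.848 ± 0.695 in Lean d10, where the library labelled replicate 1 reached 1.64. How far reads of Sept5 entered the Gp1bb counts was not tested.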

How the data were processed

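RNA was sequenced from 30 calluses by the authors, with stranded libraries of poly(A) RNA. Per the paper's methods and the submitters' processing notes, reads were demultiplexed with bcl2fastq, trimmed with BBDuk, aligned to GRCm38 with HISAT2 2.1.0 and counted per gene with HTSeq. The authors deposited raw counts without normalization. HTSeq's strand option and the annotation it used are not given in the sources used here. Of 43629 identifiers, 42548 were matched to GENCODE M21.

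Counts were analysed in R 4.3.3 with edgeR 4.0.16 (TMM factors, filterByExpr defaults, two-sided quasi-likelihood tests, Benjamini-Hochberg adjustment over all genes of a fit, threshold 0.05). The 12 Lean libraries (16471 genes tested), the 18 DIO libraries (16995), the 6 libraries of each shared day (15341 to 15772) and the 24 libraries of d3 to d10 (17057) were fitted separately, and all 7 members passed the filter in each. Log2 CPM used a prior count of 2. A member was detected at 3 counts or more, and that limit covers counting error only. The precision of the tests came from the spread between mice of a group, pooled over the groups of a fit and moderated across genes. SE was computed from the log2 fold change and the F statistic of its edgeR test.

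The members and lists were chosen with earlier results of these data known. Named genes were all members, up to 4 genes of a list with the smallest p in a comparison, and the 3 genes most like each member. A gene that these rules name is not reported here. DESeq2 1.42.0, other factors and filters, a replicate block, 1 fit of all libraries and leaving out each library were alternatives. Replicate numbers only name the libraries of a group, and libraries with the same number in different groups are from different mice. Same-numbered libraries deviated together (r of deviations from group means, over genes, 0.318 to 0.383) in Lean d7 against d5, and in no other comparison did every pair pass 0.1. The tests were tested on simulated data. Figures were drawn with matplotlib 3.10.9.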

Additional observations from a re-analysis of the deposited data

How the results depend on the processing

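The 39 log2 fold changes given for members had 273 alternative values, without the refits that left out a library. Of these, 254 kept their direction and their side of the threshold, 17 passed it anew, 2 no longer passed it and 0 turned direction. With 1 library left out in Lean d10 against d3, Ppbp kept its call in 4 of 6 refits, Gp5 in 3 and Gp6 in 5. Pf4 and Itga2b kept theirs in 6, and Gp9 gained a call in 1. Pf4 kept its call in 6 of 6 refits in DIO d5 and d10 against d3, but in 3 in DIO d21 against d3. Between diets on d5, Pf4 kept it in 2 of 6. No mean CPM of 70 moved by more than 1 SD when TMM factors were left out. With DESeq2 the count of members called was 1 in Lean d5 against d3, 1 in Lean d10 against d7, 2 in DIO against Lean on d5, and 1 for the change of the diet difference from d7 to d10 and over d3 to d10. With genes filtered on 1 count only it was 1 in Lean d10 against d7, 2 in DIO d5 against d3, 6 over the DIO days, and 1 for either change of the diet difference. With all 30 libraries in 1 fit it was 1 in Lean d10 against d7 and 0 between diets on d5. With the replicate block it was 3 in Lean d10 against d7 and 6 over the Lean days. Between diets the block gave 5 on d3 and 0 on d5, where libraries share only a number. In Lean d7 against d5, where same-numbered libraries deviated together, the block gave 0 calls. Leaving out 1 library gave 0 to 1 members in Lean d10 against d7, 2 to 6 in Lean d10 against d3, 1 to 3 over the Lean days, 0 to 1 in DIO d21 against d3, 1 to 5 over the DIO days, and 0 to 1 in each diet comparison of d5 and d7 and each change of the diet difference. Over all genes, those refits called 24 to 1141 in Lean d10 against d7, 2863 to 5016 in Lean d10 against d3 and 6072 to 7921 in DIO d21 against d3. The causes were not tested.

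Over all genes, edgeR's counts moved by more than 1.5 times under some settings. DESeq2 called 583 genes against 74 in Lean d5 against d3, 38 against 0 in Lean d7 against d5, 1802 against 450 in Lean d10 against d7 and 4847 against 3132 over the Lean days. In DIO mice it called 575 against 285 in d5 against d3, 343 against 3 in d7 against d5 and 552 against 129 in d14 against d10. Between diets it called 726 against 0 on d3, 1149 against 170 on d5, 944 against 366 on d7, 41 against 0 on d10, 1496 against 865 for the change from d7 to d10 and 1151 against 282 over d3 to d10. With the filter on 1 count, edgeR called 169 in Lean d5 against d3, 478, 271 and 329 in DIO d5 against d3, d7 against d5 and d14 against d10, 515, 565, 724 and 29 between diets on d3, d5, d7 and d10, and 503 over the shared days. The replicate block called 199 in Lean d5 against d3, 1479 in Lean d10 against d7, 45 in DIO d14 against d10, 325 between diets on d3 and 0 on d5. The fit of all libraries called 202, 2 and 1529 in the 3 Lean steps, 1 in DIO d7 against d5, 2 in DIO d14 against d10, and 63, 675 and 3 between diets on d5, d7 and d10. Upper-quartile factors and a filter of 0.5 CPM each called 1 between diets on d3. Levels of Gp6 rest on few counts, and for Ppbp, Gp9, Gp6 and Gp5 1 SD between mice of a group was over 1 on the log2 scale.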
